A study of Rattus norvegicus with 12 samples.

Results

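Dmd encodes dystrophin, and the circles described here are the extrachromosomal circular DNAs (eccDNA) listed in exons or introns of that gene in rat skin. They were chosen by annotation: an entry belonged to the set when its type was exon or introns and its comma-separated gene symbols held Dmd. That rule found 108 of 228353 listed eccDNA, 107 in introns and 1 in an exon. The skin came from the back of wild-type SD (Sprague Dawley) rats and was sequenced by Circle-seq, in which linear DNA is digested and the remaining circles are sequenced. The 12 libraries form 3 groups of 4. Control rats were untreated. The other groups received electron beam radiation once a week, either 2 doses of 5 Gy each (5 Gy x2) or 4 (5 Gy x4), and their skin was collected 7 days later. The study set out to compare circular DNA between these doses. The labels give neither the age nor the sex of the rats, nor a sampling time for control skin, and leave unsaid whether each library is a different animal, so p-values measure the spread between libraries, which may be partly technical. A larger number of fractions also meant later sampling, so dose and time cannot be told apart. Since DNA was measured, the skin label could not be checked against marker genes.

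Dystrophin is a rod-shaped protein under the muscle cell membrane that ties the actin cytoskeleton to the dystroglycan and sarcoglycan complex and through it to laminin outside the cell. Its gene lies on the X chromosome, is among the longest of mammals and consists almost wholly of introns, and its loss causes Duchenne muscular dystrophy. Rodent back skin carries a sheet of striated muscle, the panniculus carnosus, beneath the fat layer. A circle from Dmd is a ring of DNA with part of the gene in it and says nothing by itself about transcription.

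The authors' positions use genome build rn6. Dmd (ENSRNOG00000046366) circles lay on chromosome X from 51419320 to 53518215, a span of 2.10 Mb, and positions along the gene are given here as distance from the first circle. RefSeq's GRCr8 table places Dmd on the forward strand and lists Dmd, Tab3, Gk and Il1rapl1 in the same order as the circles of these genes in rn6, so low coordinates are taken as the 5′ side. The first base of Dmd in rn6 is not used here, and no entry with the Dmd symbol was annotated to the 2 kb before or after the gene. None of the 157 larger circles (ecDNA) that are listed apart overlapped this span. Total supporting reads (split reads plus what the tables call PE reads, here paired reads) ran from 35525 to 404815 per library and listed eccDNA from 3601 to 46163, with control averaging 7057.5 ± 3360 (SD, n = 4), 5 Gy x2 20383 ± 10319 and 5 Gy x4 33273 ± 14081.5. Libraries of the same group shared at most 18.2% of the circles of the smaller library. The gene was chosen with its circle numbers known, so its numbers are given as a description, with no test.

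Dmd ranked 11 of 14875 genes by listed circles and had the most of 414 genes with a circle on chromosome X. Gpc6, with 111 entries, stood just above it and Pde4d, with 107, just below. The median gene with a circle had 3. Over its span Dmd carried 51.5 listed circles per Mb, and 46.7 without the cluster described below. The 5 Mb before the first Dmd circle carried 32.0 per Mb, the 5 Mb after the last 34.2, chromosome X outside Dmd 38.5 and the 20 autosomes 84.8. Among Dmd and the 25 other genes of the 2 lists described below that had at least 10 circles, Il1rapl1 had the lowest number per Mb of circle span (40.5) and Dmd the next (51.5). Il1rapl1, a long gene for a synaptic receptor, lies on chromosome X as well. All others lay between 67.5 and 197 per Mb. The span runs from a gene's first to its last circle, so it is shorter than the gene where circles are few.

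Presence of a circle in a library means at least 1 supporting read there. By that count, irradiated skin libraries held more Dmd circles on average than control libraries. Control replicates 1 to 4 held 2, 6, 3 and 5 Dmd circles, a mean of 4.00 ± 1.83 (SD, n = 4). The 5 Gy x2 replicates held 11, 15, 13 and 5, a mean of 11.0 ± 4.32, or 2.75-fold the control mean. The 5 Gy x4 replicates held 10, 20, 18 and 6, a mean of 13.5 ± 6.61, or 3.38-fold the control mean and 1.23-fold the 5 Gy x2 mean. All listed eccDNA came to 2.89-fold the control mean in 5 Gy x2 and 4.71-fold in 5 Gy x4, so the folds of Dmd were no higher. Replicate 4 of 5 Gy x2 lay within the control range, and replicate 4 of 5 Gy x4 equalled the highest control library, so neither irradiated group lay wholly above control. In each irradiated group the library with the fewest Dmd circles also had the fewest eccDNA, 6326 in 5 Gy x2 replicate 4 and 20124 in 5 Gy x4 replicate 4. Control differed: replicate 4 had the fewest eccDNA (3601) and 5 Dmd circles, and replicate 3 the most (10389) and 3.

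Relative to all eccDNA of a library, the mean for Dmd was lower in 5 Gy x4 than in control, with 1 control library far above the others, and the direction depended on the denominator. Control replicates 1 to 4 had 4.17, 6.35, 2.89 and 13.9 Dmd circles per 10000 eccDNA, a mean of 6.82 ± 4.92 (SD, n = 4). The 5 Gy x2 replicates had 5.79, 5.22, 4.74 and 7.90 (5.91 ± 1.40), and the 5 Gy x4 replicates 4.53, 4.47, 3.90 and 2.98 (3.97 ± 0.718). The highest value, that of control replicate 4, rested on 5 circles among 3601 and had a 95% exact binomial interval of 4.51 to 32.4. That interval covers counting error only, takes circles as independent and overlapped the interval of every other library. Against control, 5 Gy x4 came to 0.582-fold in the means, and to 0.888-fold without control replicate 4. For 5 Gy x2 the values were 0.866-fold and, without that library, 1.32-fold. Per 1000 circles of chromosome X outside Dmd, control averaged 21.9 ± 14.3 Dmd circles, 5 Gy x2 21.8 ± 4.29 and 5 Gy x4 14.9 ± 3.28. Relative to the supporting reads of the library, the direction turned: 5 Gy x2 came to 1.92-fold and 5 Gy x4 to 1.39-fold of control.

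**Figure D1:**
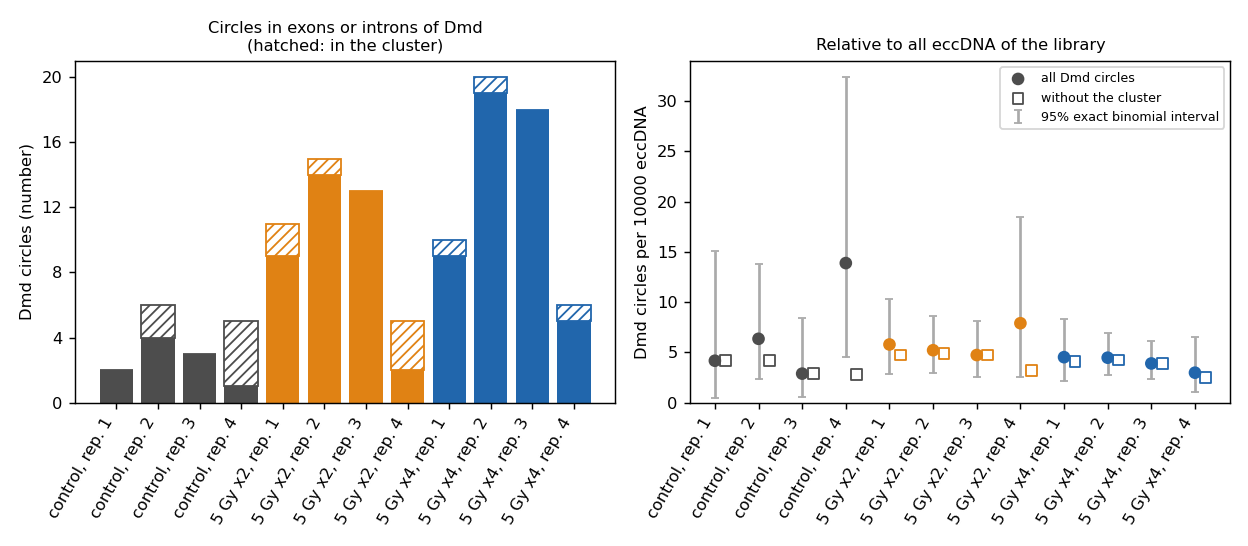
Left, number of Dmd circles per library, with the circles of the cluster at 368 kb hatched; right, Dmd circles per 10000 eccDNA (filled points, with 95% exact binomial intervals) and the same without the cluster (open squares). Control replicate 4 stands at 13.9 per 10000 with the cluster and at 2.78 without it.

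A short intronic stretch held a dense group of circles. At 368 kb from the first circle, 10 of the 108 circles lay within 3880 bp (chromosome X, 51787395 to 51791274), each within 1000 bp of a neighbour. The stretch makes up 0.185% of the span and holds 9.26% of the listed Dmd circles and 42.9% of their supporting reads (619 of 1442). The remaining 98 circles were scattered, with 6 further groups of 2 circles each by the same 1000 bp rule. Linking all eccDNA of the genome by that rule gave 60 groups of at least 10 circles, of which 15, this one among them, spanned 5 kb or less. In 8 of the 10 entries the annotation also lists LOC102549011 (ENSRNOG00000050178), which overlaps Dmd there, so those circles could be assigned to either locus. The cluster was noticed in the data and is therefore described without a test.

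Circles of the cluster were found in 8 of 12 libraries across all 3 groups. Control libraries held 6 calls there (2 in replicate 2 and 4 in replicate 4), 5 Gy x2 libraries 6 (2 in replicate 1, 1 in replicate 2 and 3 in replicate 4) and 5 Gy x4 libraries 3 (1 each in replicates 1, 2 and 4). Control replicates 1 and 3, 5 Gy x2 replicate 3 and 5 Gy x4 replicate 3 had none. In the libraries that held any, the cluster supplied 15.2% to 77.6% of the Dmd supporting reads, with the lowest share in 5 Gy x4 replicate 2 and the highest in control replicate 4. Of the 5 Dmd circles of control replicate 4, 4 lay in the cluster.

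Sequencing depth over these calls stood apart from the rest of the gene. The 15 calls had a mean depth of 40.1 to 194 reads per base with a median of 95.4, and the 99 other Dmd calls a median of 3.70, with 78 of them under 10. Only 1 call outside the cluster exceeded a depth of 40, a 217 bp circle of 5 Gy x2 replicate 1 from 51993938 to 51994154 with 72 reads and a depth of 83.0. Paired reads supplied 38.6% of the supporting reads in the cluster and 4.62% elsewhere. In 3 of the 15 cluster calls, and in 0 of the 99 others, no split read supported the junction. The authors' label was conf for 9 and hconf for 1 of the 10 cluster circles, while 71 of the other 98 were lconf, 26 hconf and 1 conf; the tables do not define these labels.

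**Figure D2:**
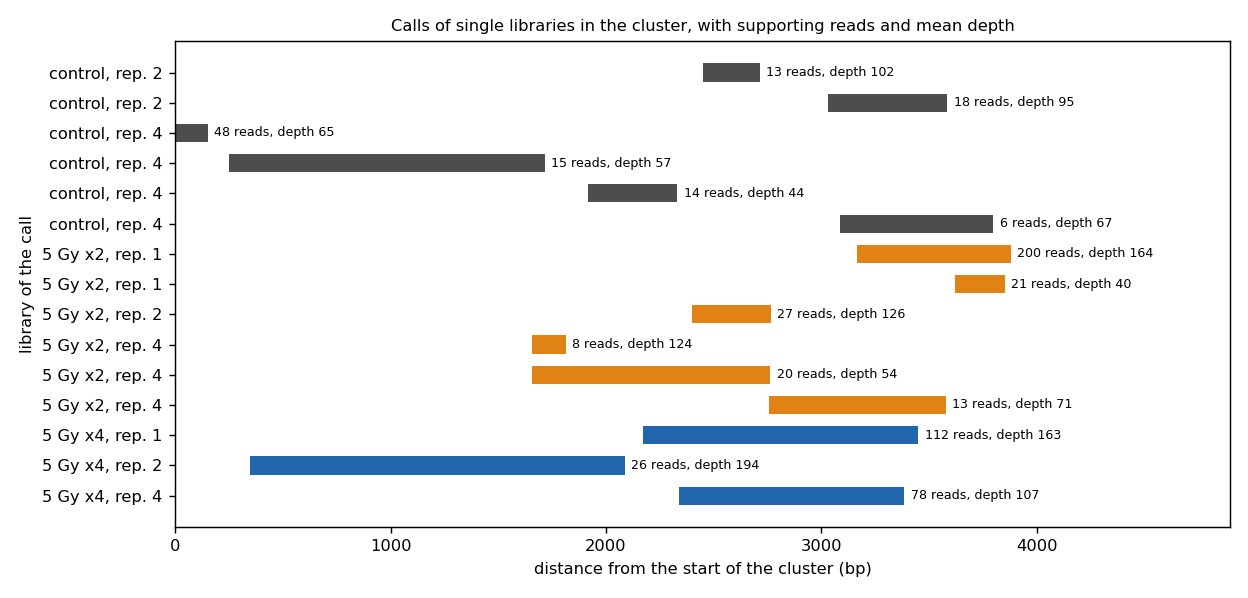
Calls of single libraries in the 3880 bp cluster, drawn from the call's start to its end against distance from the start of the cluster (bp), coloured by group (grey control, orange 5 Gy x2, blue 5 Gy x4). Each bar carries the call's supporting reads and mean depth. No 2 of the 15 calls have the same start and end.

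Recurrence of Dmd circles came mainly from the same stretch. Of the 108 circles, 5 were listed in more than 1 library (4.63%, against 3.91% of all eccDNA), and 4 of those 5 lay in the cluster. Merged entries joined calls with different ends. The entry from 51790427 to 51791274 was found in control replicates 2 and 4 and 5 Gy x2 replicate 1, with 18, 6 and 200 reads, and its calls were 553, 712 and 714 bp long, with starts up to 134 bp and ends up to 295 bp apart. The entry from 51789565 to 51790845 joined calls of 1281 bp (112 reads, 5 Gy x4 replicate 1) and 1046 bp (78 reads, 5 Gy x4 replicate 4). These were the best supported Dmd entries, with 224 and 190 reads. A circle of control replicate 4 from 51787395 to 51787545 (151 bp) had 48. The entry from 51787645 to 51789481, the longest at 1837 bp, joined calls of 1465 bp in control replicate 4 (15 reads) and 1741 bp in 5 Gy x4 replicate 2 (26 reads). A circle from 51789795 to 51790160 was called in control replicate 2 (262 bp, 13 reads) and 5 Gy x2 replicate 2 (366 bp, 27 reads). Outside the cluster the only recurrent circle ran from 52471743 to 52472148, with 3 reads in 5 Gy x2 replicate 1 and 6 in 5 Gy x2 replicate 2.

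Without the cluster, the numbers per 10000 eccDNA differed little between groups. Control replicates 1 to 4 then had 4.17, 4.24, 2.89 and 2.78 per 10000, the 5 Gy x2 replicates 4.74, 4.87, 4.74 and 3.16, and the 5 Gy x4 replicates 4.07, 4.25, 3.90 and 2.48. The group means were 3.52 ± 0.793, 4.38 ± 0.812 and 3.68 ± 0.807 (SD, n = 4), and the ranges overlapped. Relative to control this made 1.24-fold in 5 Gy x2 and 1.05-fold in 5 Gy x4, so the lower relative value of 5 Gy x4 was not seen outside the cluster. In number, the remaining circles came to 2, 4, 3 and 1 in control, 9, 14, 13 and 2 in 5 Gy x2 (3.80-fold in the means) and 9, 19, 18 and 5 in 5 Gy x4 (5.10-fold). All listed eccDNA were 2.89-fold and 4.71-fold the control mean.

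Along the span from the first to the last circle, every bin held circles. In 10 equal bins of 210 kb, the bins held 12, 23, 8, 8, 3, 10, 12, 12, 9 and 11 listed circles in order of coordinate, and the second bin held 13 without the cluster. The fifth bin, from 840 to 1049 kb, was the emptiest, with 1 call in each group. The longest stretch with no circle measured 126394 bp and lay from 397.8 to 524 kb, beyond the cluster on the high-coordinate side. The midpoint of the span divided the entries evenly, with 54 on each side, and 44 and 54 without the cluster.

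The share of Dmd circles on the low-coordinate side of the midpoint was 0%, 50.0%, 33.3% and 100% in control replicates 1 to 4, 63.6%, 53.3%, 46.2% and 80.0% in 5 Gy x2 and 40%, 40%, 38.9% and 100% in 5 Gy x4. The means were 45.8% ± 41.7 (SD, n = 4), 60.8% ± 14.7 and 54.7% ± 30.2, and the ranges overlapped. None of the differences passed an adjusted p of 0.05. They were 14.9 percentage points for 5 Gy x2 against control (two-sided exact permutation p = 0.571) and 8.89 for 5 Gy x4 against control (exact p = 0.83). Between the doses the difference was -6.06 (exact p = 0.686). Each difference had an adjusted p of 0.994 over the 12 tests of this kind. The first of these turned to -0.33 without control replicate 1, the second to -6.39 without control replicate 1 and to -6.20 without 5 Gy x4 replicate 4, and the third to 0.35 without 5 Gy x2 replicate 4. All 6 Dmd circles of 5 Gy x4 replicate 4 lay between 0.108 and 397.7 kb, short of that gap, where 35 of the 108 entries lie. The 5 circles of control replicate 4 also ended before the gap, at 371.5 kb. With 4 libraries against 4 the smallest exact p is 0.0286, so a single test could not pass an adjusted 0.05 over 12 tests.

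**Figure D3:**
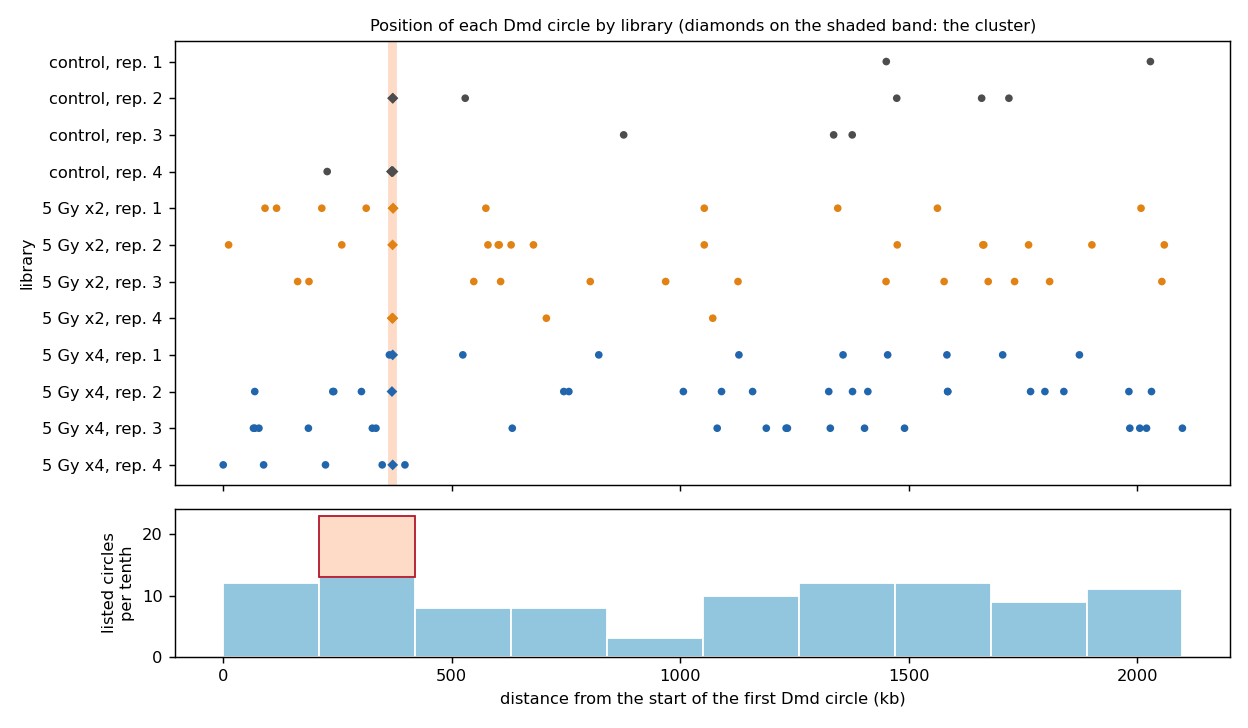
Above, position of each Dmd circle (midpoint, kb from the first circle) in each library, coloured by group, with diamonds on the shaded band (drawn wider than scale) for the 3880 bp cluster; below, listed circles in 10 equal bins, with the 10 circles of the cluster outlined. The circles of control replicate 4 stop at 371.5 kb and those of 5 Gy x4 replicate 4 at 397.7 kb.

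Only 1 Dmd circle overlapped an exon, and it was the last of the 108 along the span. It ran from 53517860 to 53518215 (356 bp), was labelled hconf and had 5 reads in 5 Gy x4 replicate 3. Exonic circles were 12.8% of all eccDNA in exons or introns. The length of exon sequence in Dmd is not used here, so this difference was not scaled to it.

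In length, most Dmd circles fell into a class of 330 to under 420 bp, and most others into 150 to under 250 bp. The median was 366 bp (quartiles 251.75 and 393, range 106 to 1837), and that of all eccDNA 360 bp. The class of 330 to under 420 bp held 66 of the 108 circles (61.1%), where it held 66.3% of all eccDNA, and 64 of the 98 circles outside the cluster (65.3%). A further 25 were 150 to under 250 bp, 2 were shorter, 4 were 250 to under 330 bp, 8 were 420 to under 1000 bp and 3 were longer, all 3 of them in the cluster. The label hconf was given to 15 of the 25 circles of 150 to under 250 bp (60%, against 55.6% of all eccDNA of that length) and to 8 of the 66 of 330 to under 420 bp (12.1%, against 18%). The shortest Dmd circle, 106 bp from 52126409 to 52126514, had 8 reads in 5 Gy x2 replicate 4.

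The share of Dmd circles of 330 to under 420 bp was higher on average in irradiated skin, with ranges that overlapped control. It was 0 of 2, 2 of 6, 2 of 3 and 1 of 5 circles in control replicates 1 to 4, a mean share of 30% ± 28 (SD, n = 4). In 5 Gy x2 it was 8 of 11, 11 of 15, 10 of 13 and 0 of 5 (55.7% ± 37.2), and in 5 Gy x4 5 of 10, 14 of 20, 13 of 18 and 2 of 6 (56.4% ± 18.3). By the 95% exact binomial interval, 0 of 5 circles in 5 Gy x2 replicate 4 allows a share of up to 52.2%, and 0 of 2 in control replicate 1 one of up to 84.2%. The interval takes circles as independent, although 3 of those 5 circles lay in the cluster, so the first limit may be too low. The difference from control was 25.7 percentage points in 5 Gy x2 (two-sided exact permutation p = 0.314, adjusted p = 0.994) and 26.4 in 5 Gy x4 (exact p = 0.171, adjusted p = 0.994), and 0.643 between the doses (exact p = 1). The last turned negative without 5 Gy x2 replicate 4 (-17.9) or 5 Gy x4 replicate 2 (-3.89) or 3 (-4.63). In these libraries the same share over all eccDNA was 16.1% to 44.6% in control and 60.5% to 70.3% in irradiated skin. Pooled over libraries and outside the cluster, 3 of 10 calls in control, 28 of 38 in 5 Gy x2 and 34 of 51 in 5 Gy x4 fell in this class. Pooling gives more weight to libraries with more circles, and calls are not replicates. By library, these shares ran from 0 to 66.7% in control, 0 to 88.9% in 5 Gy x2 and 40 to 73.7% in 5 Gy x4, so the ranges overlapped.

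Median lengths overlapped between groups. They were 487, 311.5, 379 and 416 bp in control replicates 1 to 4 (398 ± 73.2, SD, n = 4), 357, 377, 372 and 219 bp in 5 Gy x2 (331 ± 75.3) and 385, 368, 363 and 305 bp in 5 Gy x4 (355 ± 34.8). The mean of the medians differed from control by -67.1 bp in 5 Gy x2 (exact permutation p = 0.286) and by -43.1 bp in 5 Gy x4 (exact p = 0.343), with an adjusted p of 0.994 each. Without the cluster these differences were -15.4 and -2.88 bp. Between the doses the difference was 24.0 bp (exact p = 0.657, adjusted p = 0.994), and -13.4 bp without 5 Gy x2 replicate 4.

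**Figure D4:**
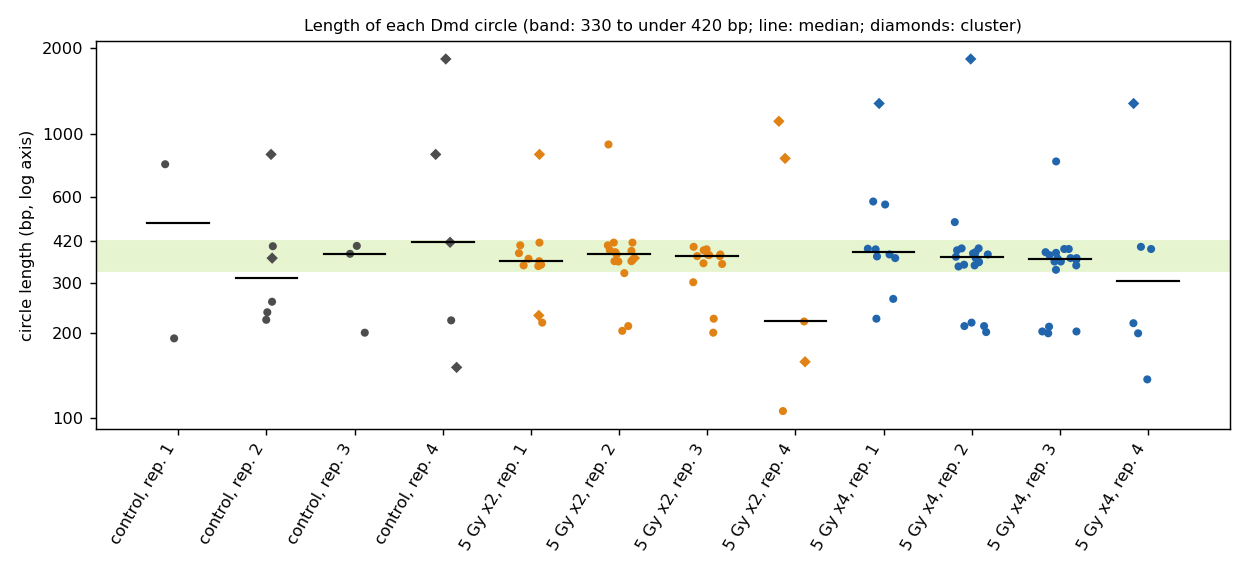
Length of each Dmd circle (bp, log axis) by library, coloured by group, with the class of 330 to under 420 bp shaded, the library's median as a line and circles of the cluster as diamonds. All circles over 1000 bp are diamonds, and 5 Gy x2 replicate 4 has no circle in the shaded class.

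The median supporting reads per Dmd circle showed no difference beyond the spread between libraries. Its group means were 11.3 ± 7.68 in control (3, 7, 20 and 15), 8.50 ± 6.25 in 5 Gy x2 (16, 2, 5 and 11) and 10.4 ± 10.3 in 5 Gy x4 (8.5, 4.5, 3 and 25.5; SD, n = 4). Against control the differences were -2.75 reads in 5 Gy x2 (exact permutation p = 0.600, adjusted p = 0.994) and -0.88 in 5 Gy x4 (exact p = 0.943, adjusted p = 1), and 1.88 between the doses (exact p = 0.800, adjusted p = 0.994). The first changed sign (0.17) without control replicate 3. The second did so without control replicate 3 or 4 or 5 Gy x4 replicate 2 or 3, by at most 2.04, and the third without 5 Gy x2 replicate 2 (-0.29) or 5 Gy x4 replicate 4 (-3.17). Outside the cluster 29 of the 99 calls rested on 1 or 2 reads.

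The log2 fold changes of Dmd in the edgeR fits, taken relative to the genes kept, changed with the genes and libraries used. The number of circles per gene was tested with edgeR, whose filter left 15 of 14875 genes, Dmd among them. Library sizes were those of the genes kept. At an adjusted p of 0.05, 60% of the 15 genes were called in 5 Gy x4 against control (9), 40% in 5 Gy x2 against control (6) and 0 between the doses, where edgeR gave 1 gene an unadjusted p under 0.05 and DESeq2 also called 0. Leaving out a library also changed how many genes passed the filter, so these counts come from unlike sets of genes. In 5 Gy x4 against control, 14 of 24 genes were called without control replicate 1 and 4 of 22 without control replicate 4. In 5 Gy x2 against control, 2 of 22 were called without control replicate 4 and 3 of 18 without 5 Gy x2 replicate 3. The same comparison gave 12 of 24, 12 of 26 and 11 of 24 without control replicates 1, 2 and 3, 11 of 29 without 5 Gy x2 replicate 1 and 15 of 27 without 5 Gy x2 replicate 4. For Dmd the log2 fold change, relative to these 15 genes, was 0.01 (SE 0.41) in 5 Gy x2 against control, -0.21 (SE 0.40) in 5 Gy x4 against control and -0.22 (SE 0.30) between the doses, given as values with no test. Over the alternative settings these ran from -0.18 to 0.86, from -0.48 to 0.63 and from -0.52 to -0.19. The 2 comparisons with control share the control libraries.

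Genes of the dystrophin complex, of its glycosylation and some others, Dysf among them, were listed to set beside Dmd. Of 28 such genes, 25 had at least 1 listed circle and 12 had at least 10; Sgca, Sgcz and Pomt1 had none under these symbols. None of the 28 passed edgeR's filter, so none could be tested. Listed circles came to 73 for Lama2 (a chain of the laminin that dystroglycan binds), 61 for Utrn (utrophin, the autosomal relative of dystrophin) and 46 for Sgcd (delta-sarcoglycan). The syntrophins, adaptors bound to dystrophin, had 30 (Sntb1), 25 (Sntg2), 20 (Sntg1) and 12 (Sntb2), and the dystrobrevins 24 (Dtnb) and 17 (Dtna). Dysf, a membrane repair protein, had 25, and Nos1, the neuronal nitric oxide synthase that the complex anchors in muscle, 19. Dag1, which encodes dystroglycan itself, had only 2.

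All 12 genes with at least 10 circles had a higher mean in 5 Gy x4 than in control, as did 97.0% of the 2355 genes with that many circles in the genome. In 3 of the 12 (Sgcd, Sntg2 and Dtnb) every 5 Gy x4 library lay above every control library, where this held for 21.6% of the 2355 genes. Sgcd circles numbered 1, 1, 0 and 1 in control and 3, 11, 6 and 4 in 5 Gy x4. The median fold of the means in 5 Gy x4 was 6 over the 11 genes with a control circle, against 5.00 over the 1914 such genes of the genome, and 3.38 for Dmd. Utrn, at 2.25 ± 0.957 circles per control library, 5.00 ± 2.16 in 5 Gy x2 and 8.25 ± 4.92 in 5 Gy x4 (SD, n = 4), had a fold of 3.67 in 5 Gy x4.

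**Figure D5:**
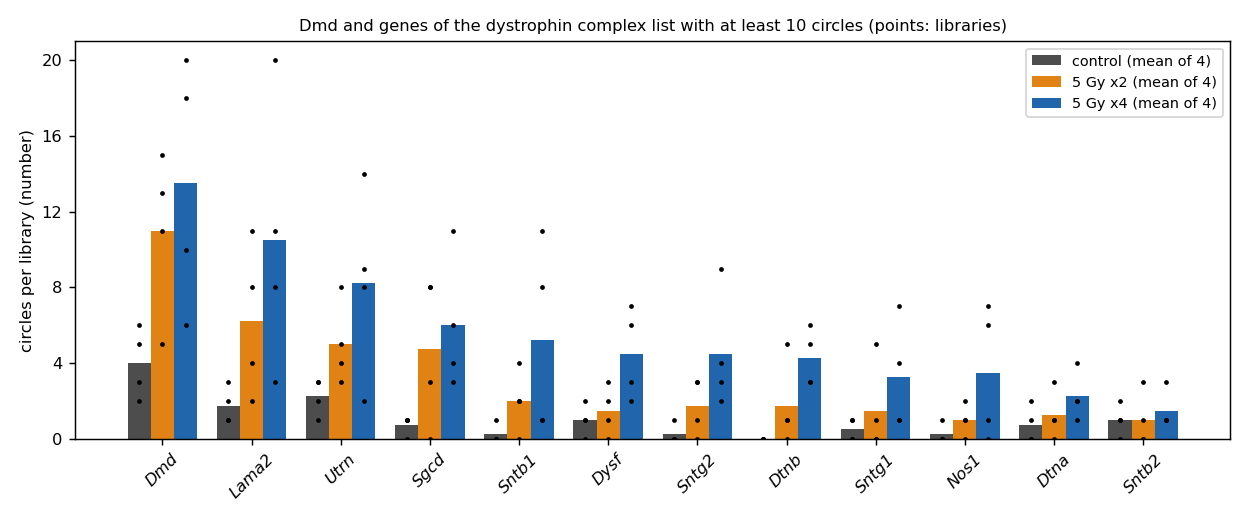
Circles per library (number) for Dmd and 11 genes of the dystrophin complex list with at least 10 listed circles; bars are group means of 4 libraries and points single libraries. The 5 Gy x4 bar is the highest of each gene, while its points reach down to the control points in all but Sgcd, Sntg2 and Dtnb.

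Of 26 long genes listed for comparison, 16 had circles under these symbols and 13 had at least 10. Among those near Dmd in listed circles were Dlg2 (71), Magi2 (69) and Nrxn3 (160), genes with roles at synapses. Dlg2, which encodes a postsynaptic scaffold protein, had 1, 0, 1 and 0 circles in control and 9, 16, 12 and 5 in 5 Gy x4, so the 5 Gy x4 libraries lay above all control libraries, where those of Dmd did not. This held for 5 of the 13 genes, and for 21.6% of all genes with at least 10 circles. The fold of means in 5 Gy x4 over the 13 genes ran from 3.29 to 21 with a median of 8.50. Il1rapl1, beyond Tab3 and Gk on the same side of Dmd, held 2, 3, 2 and 0 circles in control and 4, 12, 12 and 4 in 5 Gy x4, 4.57-fold in the means.

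By the profile over the 12 libraries, circles per 10000 eccDNA of Dmd were most like those of Apoo (r = 0.85), Ighm (0.84), Kalrn (0.82), Utrn (0.81) and Negr1 (0.79), among 65 genes with at least 60 circles. These are Pearson correlations over libraries, given as a description. They rest in large part on control replicate 4, the library with the fewest eccDNA: without it the 5 values were 0.44, 0.49, 0.29, 0.30 and 0.75.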

How the data were processed

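Circle-seq libraries of rat back skin (3 groups of 4, per the labels) were analysed from the authors' deposited tables. For each library the deposited values are whole-number counts for each circle of 1 common list, taken here as supporting reads with no normalization. The authors' annotation table gives positions, gene symbols, reads summed over libraries and, per call, position, split reads, paired (PE) reads and mean depth. The submitters' processing notes name BWA, Picard, bedtools and build rn6; the circle caller and how calls were merged: not given in the sources used here. Each table's Start column begins at 0, and positions printed here begin at 1. In the 108 Dmd entries the library counts summed to the listed total.

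The members, gene lists and tests were chosen with earlier results of these data known. Named were Dmd, genes of a dystrophin complex list with at least 10 circles, the 5 long genes nearest in circle number (some of these listed genes are not reported here), the 5 genes most alike over libraries, and Dmd circles that were recurrent, best supported (5), shortest, longest or exonic; Sgca, Sgcz, Pomt1, Dag1, Gpc6, Pde4d and Il1rapl1 were named after their values were seen. Group means were set against all 70 splits of 4 libraries from 8 in a two-sided exact permutation test (Python 3.11.15, numpy 2.4.6, pandas 2.3.3), Benjamini-Hochberg adjusted over 12 tests. Circles per gene were fitted with edgeR 4.0.16 (R 4.3.3, TMM, filterByExpr, quasi-likelihood F test, group only). The fit was tried on simulated data with gene means above those observed, which does not show its behaviour at the observed counts. DESeq2 1.42.0 served as an alternative. Other alternatives were a minimum of 2 reads, circles under 1000 bp, introns only, other denominators, length class and position limits, the replicate block, leaving out each library, and, added after the data were seen, leaving out the cluster and using each library's own call length.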

Additional observations from a re-analysis of the deposited data

Results flagged for a closer look

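In 5 Gy x2 replicate 4, which held 5 Dmd circles, 0% were 330 to just under 420 bp long and the median length was 219 bp, each far below the other 3 libraries of its group (72.7% to 76.9%, and 357 to 377 bp). Of those 5 circles, 3 lay in the cluster, and 60.5% of all eccDNA of this library fell in the length class. In 5 Gy x4 replicate 4, 100% of the 6 Dmd circles lay on the low-coordinate side of the midpoint, against 38.9% to 40% in the other 3 libraries of the group. By Dixon's criterion for 4 samples, chance flags about 1 in 20 groups, and 18 groups were examined. These libraries held the fewest Dmd circles and the fewest eccDNA of their groups.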

How the results depend on the processing

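Of the number of Dmd circles, all alternatives stayed within the spread between libraries, with folds without single libraries of 2.36 to 3.30 (5 Gy x2 against control), 2.83 to 4.05 (5 Gy x4 against control) and 1.03 to 1.45 (between the doses). Per 10000 eccDNA, the folds moved to 1.92 and 1.39 (5 Gy x2 and 5 Gy x4 against control) with supporting reads as the denominator and, for 5 Gy x4, to 1.05 without the cluster, and ran from 0.727 to 1.32, 0.488 to 0.888 and 0.630 to 0.757 without single libraries. No permutation test on the Dmd circles passed an adjusted 0.05 under any alternative. The sign-flip permutation test of the replicate block, with its smallest p of 0.125, could not pass. With 4 libraries against 4 the smallest exact p is 0.0286, so a single test could not pass after adjustment over 12 tests either. That none passed does not show the groups to be alike. Between the doses the difference in the share of 330 to under 420 bp turned to -0.591 percentage points with at least 2 reads and to -2.95 for 300 to under 450 bp, and that in the low-coordinate share to 1.84 without the cluster. Without single libraries the differences ran, in the order 5 Gy x2 against control, 5 Gy x4 against control, between the doses, from 15.7 to 44.3, 16.4 to 38.6 and -17.9 to 8.33 percentage points (330 to under 420 bp), from -96.1 to -29.7, -72.1 to -13.6 and -13.4 to 40.8 bp (median length), from -0.330 to 33.0, -6.39 to 26.9 and -21.2 to 0.348 percentage points (low-coordinate share), and from -5.50 to 0.167, -5.92 to 2.04 and -3.17 to 4.38 reads (median reads). The genes called by edgeR against control went from 6 to 3 (5 Gy x2) and from 9 to 4 (5 Gy x4) with at least 10 circles in 4 libraries, from 6 to 3 with DESeq2 (5 Gy x2), and ran from 2 to 15 and 4 to 14 without single libraries (0 throughout between the doses). The first filter left 31 genes and the fits without a library 18 to 29, against 15, so these counts have unlike denominators. Deviations of same-numbered replicates over 31 genes correlated at 0.15, -0.01, 0.16 and 0.39 in 5 Gy x2 and control, so 3 of 4 pairs were over 0.1, at -0.41 to 0.02 in 5 Gy x4 and control and at -0.24 to -0.07 in both doses. Since not every pair was over 0.1, the numbers were not taken to pair the samples. With the replicate block 6, 8 and 0 genes were called, and the exact sign-flip permutation p of the share of 330 to under 420 bp was 0.375, 0.125 and 1. Libraries held 2 to 20 Dmd circles, and 29 of the 99 calls outside the cluster rested on 1 or 2 reads.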
